A study of Mus musculus with 35 samples.

Results

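The cytochrome P450 genes of the mouse lung were followed across 2 times of day and across neutrophil depletion. They were taken as the rows of the deposited table whose symbol begins with Cyp and a digit, without Cyp51 and without symbols that contain -ps, which gave 55 of 22211 genes. Of these, 54 are annotated as protein coding in GENCODE vM21, and Cyp4x1os is a transcript antisense to Cyp4x1. The gene listed as Cyp2c44 carries the name Cyp2c23 in that annotation.

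RNA came from left lung lobes, perfused with PBS and snap frozen, of 35 male mice aged 7 to 9 weeks. Wild-type mice received anti-Ly6G (clone 1A8), an antibody against a neutrophil surface protein, or control IgG, each at 3 µg/g, and mice carrying MRP8-Cre and iDTR-flox received DT (diphtheria toxin) at 10 ng/g, all given subcutaneously on 2 consecutive days. MRP8-Cre acts in myeloid cells, mostly neutrophils, and the iDTR allele makes cells with Cre activity sensitive to the toxin. Lungs were collected at a single clock time, which was ZT16 (16 hours after lights on, in the active phase of the mouse) for animals in cabinets with inverted light and ZT4 (the rest phase) for animals of the normal facility. There were 7 ZT16 and 7 ZT4 anti-Ly6G mice, 3 ZT16 and 4 ZT4 DT mice, and 7 ZT16 and 7 ZT4 control mice. Each anti-Ly6G and control group combined 3 mice of a July 2017 batch with 4 of a September 2017 batch, while all DT mice belonged to an April 2018 batch that held no control mice. Time and housing cannot be told apart here, and neither can DT, genotype and batch. No DT-injected mice without Cre were part of the design.

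P450 enzymes are haem proteins that insert oxygen into their substrates, with electrons passed on by the reductase Por or, in mitochondria, by ferredoxin. Families CYP1 to CYP3 act mainly on foreign compounds, the CYP4 and CYP2J families on fatty acids and eicosanoids, and the remaining families on sterols, bile acids, retinoic acid, steroid hormones and vitamin D. In the mouse lung the foreign-compound enzymes are concentrated in club cells of the airway, where Cyp2f2 turns naphthalene into a toxic product, and several of these genes are known for daily rhythms in liver.

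Of the 55 genes, 36 reached a normalised value of 1 in at least 3 libraries and were tested, and 28 of the 36 stayed at or above 1 in all 35 libraries. The other 19 never exceeded 1.58, and 15 of them were below 1 in every library. The tested genes comprised 11 of 17 in the foreign-compound families, 15 of 21 in the fatty acid families and 5 of 6 sterol and bile acid enzymes. They also included 1 of 2 retinoic acid hydroxylases, 1 of 3 steroid enzymes, 1 of 2 vitamin D enzymes and 2 of 3 less studied genes. Values are not corrected for gene length, so levels of different genes were compared per kb of annotated exon. On that scale Cyp2f2 led with a mean of 1784 per kb. Cyp4b1, which acts on fatty acids and also activates the lung toxin ipomeanol, had 322 per kb, Cyp2b10 149 per kb, Cyp2a5 63.5 per kb and Cyp2s1 43.4 per kb.

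Position grouped many of these genes. Counting runs of at least 3 P450 genes less than 1 Mb apart, 4 clusters held 30 of the 55 genes. The cluster at chr7:25802475-27158668 (GRCm38) contained 11 genes, among them Cyp2s1, Cyp2b10, Cyp2a5 and Cyp2f2, which were 4 of the 5 highest genes per kb. Cyp4b1 lay with Cyp4a31 and 5 other genes at chr4:115106323-115647723. Within clusters some genes are near copies. Cyp2a5 shared 54.6% of its 31-base exon words with other genes and 44.9% with Cyp2a4 alone. Cyp4a31 shared 32.0%, Cyp4f16 26.8% and Cyp2b10 19.4%. Cyp4b1 shared 11.7%, most of all with Cyp4b1-ps2 (6.14%), whose symbol is left out of the 55. The 10.9% of Cyp2f2 was shared with Gm15883, which overlaps 274 of its exon bases and is not a P450 copy. The sources used here do not state how the authors assigned such shared reads, so values of these genes are uncertain to that extent. Cyp39a1 shared none and Cyp3a13 0.308%.

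Promoter windows show what the genes that changed in both control and anti-Ly6G mice carry next to their starts. RefSeq windows (GRCm38.p6, 250 bases before to 50 after the start) were matched for 41 of the 55 genes, giving 47 windows. The windows below lie at chr7:26835089-26835388 on the plus strand for Cyp2a5, chr7:25897408-25897707 on the plus strand for Cyp2b10, chr5:137921570-137921869 on the minus strand for Cyp3a13, chr4:115647672-115647971 on the minus strand for Cyp4b1 and chr8:45333114-45333413 on the minus strand for Cyp4v3. Cyp39a1 and Cyp4a31 changed too. Capitals mark matches, on either strand, to the D-box TTATGNAA bound by the clock output factors Dbp, Hlf and Tef, to the E-box CACGTG of Clock and Bmal1, to the core GCGTG of the aryl hydrocarbon receptor (AhR), or to the nuclear receptor half-site AGGTCA.
Cyp2a5: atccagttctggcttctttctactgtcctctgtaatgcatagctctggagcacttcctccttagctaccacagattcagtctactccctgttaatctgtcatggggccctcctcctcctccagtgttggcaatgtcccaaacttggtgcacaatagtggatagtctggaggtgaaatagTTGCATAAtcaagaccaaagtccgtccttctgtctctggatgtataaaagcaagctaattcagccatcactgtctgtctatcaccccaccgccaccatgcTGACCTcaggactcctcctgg
Cyp2b10: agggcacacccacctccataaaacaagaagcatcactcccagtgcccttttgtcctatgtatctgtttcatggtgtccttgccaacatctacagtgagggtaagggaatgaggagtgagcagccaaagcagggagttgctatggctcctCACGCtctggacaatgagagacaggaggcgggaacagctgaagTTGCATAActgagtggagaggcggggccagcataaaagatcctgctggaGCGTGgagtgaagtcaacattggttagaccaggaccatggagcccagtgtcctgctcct
Cyp3a13: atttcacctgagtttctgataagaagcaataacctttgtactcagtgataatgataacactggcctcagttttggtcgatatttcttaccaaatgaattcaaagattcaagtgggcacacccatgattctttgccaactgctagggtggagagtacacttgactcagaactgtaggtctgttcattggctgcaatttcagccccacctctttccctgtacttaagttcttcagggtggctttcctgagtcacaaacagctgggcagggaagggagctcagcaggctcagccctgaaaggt
Cyp4b1: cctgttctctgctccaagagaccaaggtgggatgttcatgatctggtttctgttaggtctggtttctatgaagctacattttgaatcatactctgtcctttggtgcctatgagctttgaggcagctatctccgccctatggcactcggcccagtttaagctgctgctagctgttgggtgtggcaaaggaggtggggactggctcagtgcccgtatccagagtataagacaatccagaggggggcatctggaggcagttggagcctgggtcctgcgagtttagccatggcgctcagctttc
Cyp4v3: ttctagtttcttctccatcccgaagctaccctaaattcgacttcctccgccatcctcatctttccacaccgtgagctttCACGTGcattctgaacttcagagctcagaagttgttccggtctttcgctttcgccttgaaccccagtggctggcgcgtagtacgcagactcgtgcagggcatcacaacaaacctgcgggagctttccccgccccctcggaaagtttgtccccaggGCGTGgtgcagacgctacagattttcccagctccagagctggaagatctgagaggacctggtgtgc

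In these letters the D-box match TTGCATAA begins 71 bases upstream of the Cyp2a5 start and 58 bases upstream of the Cyp2b10 start. An E-box match begins 171 bases upstream of the Cyp4v3 start. Cyp2b10 and Cyp4v3 also hold AhR core letters, Cyp2a5 holds a half-site that begins 29 bases downstream of its start, and no 2 of these matches overlap. The Cyp3a13 and Cyp4b1 windows hold none of the 4 motifs. A D-box match occurred in 7 of 47 P450 windows (14.9%) and in 2.37% of 17697 RefSeq windows of the same length. The E-box was found in 2 of 47 (4.26%) against 8.72%, the AhR core in 14 of 47 (29.8%) against 44.2%, and the half-site in 9 of 47 (19.1%) against 13.9%. Of the 7 D-box genes, only Cyp2a5 and Cyp2b10 passed a test for time described below. Cyp27a1 and Cyp2b19 were tested and did not pass, and Cyp2a4, Cyp2b23 and Cyp4f14 were too low to be tested. Several of the 7 D-box genes are neighbouring Cyp2a and Cyp2b copies, and a match describes letters, not a site in use.

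Anti-Ly6G mice and control mice were each compared between the active and the rest phase. The foreign-compound enzymes Cyp2a5, Cyp2b10 and Cyp3a13, the lung-enriched Cyp4b1 and the oxysterol hydroxylase Cyp39a1 were higher at ZT16 in both treatments, and Cyp4v3 was lower in both. In anti-Ly6G mice 9 of 36 genes passed the test (limma on log2 values, Benjamini-Hochberg adjusted p under 0.05 over all 16786 genes tested), 6 higher and 3 lower, beside 20.9% of all genes, a share of 25.0% that is close to it. Upward calls made up 10.6% and downward calls 10.4% of all genes. In control mice 7 of 36 genes passed, 6 higher and 1 lower, a share of 19.4%, beside 9.04% of all genes, 4.65% higher and 4.38% lower. The median log2 change of the tested P450 genes was 0.0096 in anti-Ly6G mice and 0.094 in control mice, against -0.016 and -0.0018 over all genes. In bulk lung, more or fewer cells of a type and more or less RNA per cell cannot be told apart. All 7 genes called in control mice were called in the same direction in anti-Ly6G mice, which is 100% of the control list and 77.8% of the anti-Ly6G list. Among them Cyp4a31, of a fatty acid hydroxylase family, had entered the test through its ZT16 values, since 12 of its 13 libraries at or above 1 were ZT16 libraries. Leaving it aside, 5 genes were higher in each treatment, and 6 genes were called in both, of 8 in anti-Ly6G and 6 in control mice. Among all genes, 1124 were called in the same direction in both, 32.0% of the anti-Ly6G list and 74.1% of the control list. Markers of other lung cells were also called with time in these treatments. Of 8 lymphocyte markers 4 fell in anti-Ly6G mice (summed level 36.3 to 70.1 at ZT16, against 53.5 to 123 at ZT4) and 3 in control mice (26.1 to 60.1 at ZT16, against 42.6 to 92.5 at ZT4). Of 8 endothelial markers 3 rose in anti-Ly6G mice (summed level 3439 to 4644 at ZT16, against 3233 to 3963 at ZT4) and 1 in control mice. Of 8 fibroblast and smooth muscle markers 3 fell in control mice (summed level 1612 to 2100 at ZT16, against 1795 to 2203 at ZT4), and 1 rose and 1 fell in anti-Ly6G mice. Among 8 macrophage markers 2 rose in anti-Ly6G mice and 0 in control mice. Among 8 alveolar type II markers 2 rose and 2 fell in anti-Ly6G mice, and 1 fell in control mice. None of these markers was at 0 in any library, and their part in the P450 calls was not tested.

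**Figure D1:**
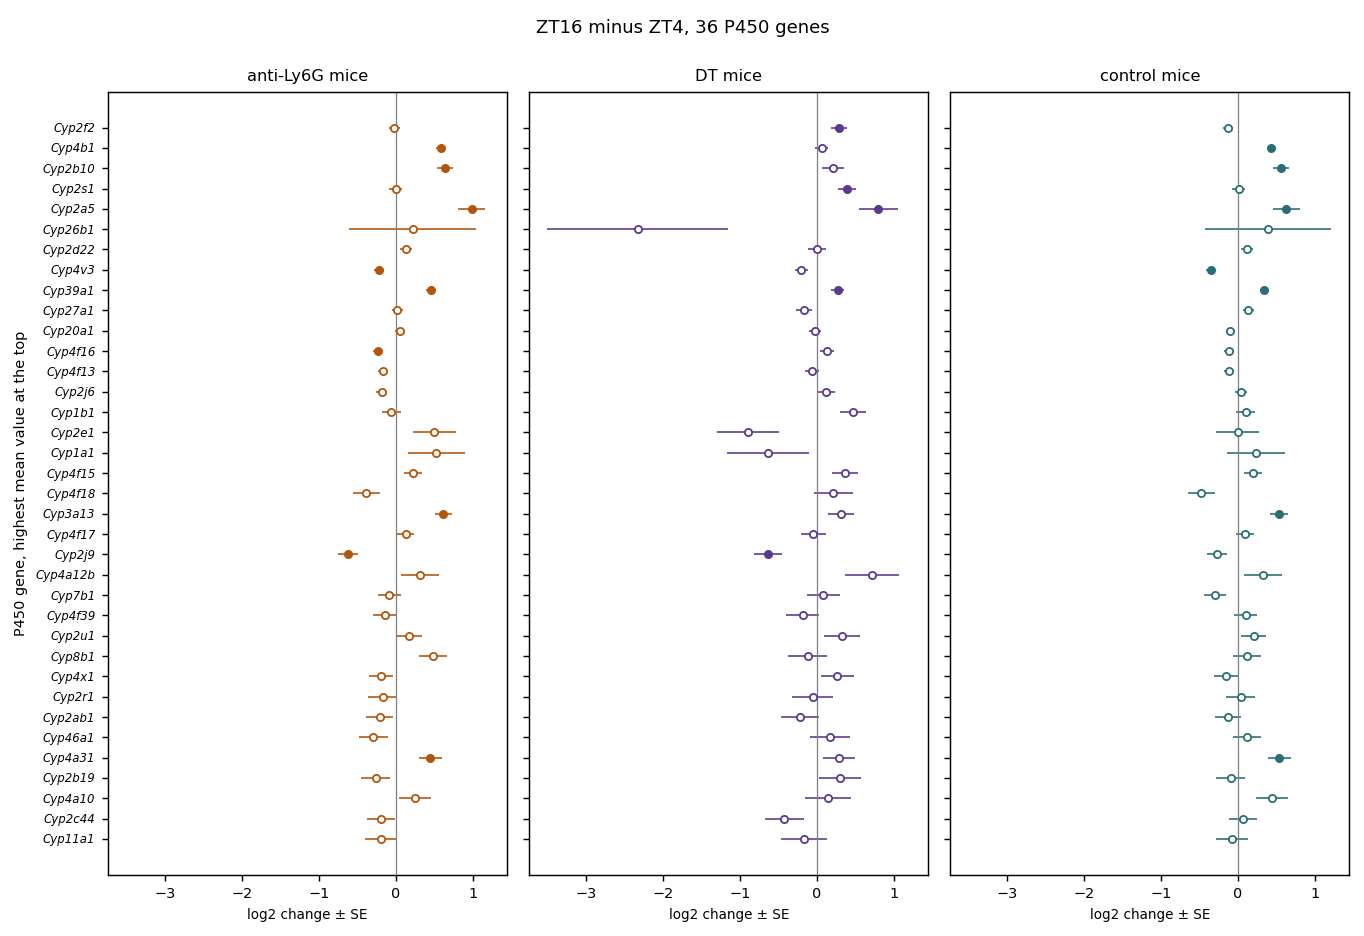
Log2 change at ZT16 minus ZT4 ± SE (x axis) for the 36 tested P450 genes, ordered by mean value from top to bottom, in anti-Ly6G, DT and control mice; filled points have a limma adjusted p under 0.05. Cyp2a5 and Cyp39a1 are filled in all 3 panels, Cyp4b1 only in the anti-Ly6G and control panels, and Cyp26b1 has by far the widest error bars.

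Cyp2a5 encodes the coumarin hydroxylase of the mouse and is a known target of Dbp in mouse liver. It had 89.0, 186 and 271 (lowest, median and highest normalised value) in ZT16 anti-Ly6G mice, against 65.0, 82.5 and 109 in ZT4 anti-Ly6G mice. In control mice it had 134, 150 and 212 at ZT16, against 80.3, 98.1 and 157 at ZT4. Single mice crossed between the times in both treatments, namely 1 low ZT16 mouse given anti-Ly6G and 1 high ZT4 control mouse. The log2 change was 0.99 ± 0.18 in anti-Ly6G mice (SE; adjusted p = 1.5e-04) and 0.63 ± 0.18 in control mice (adjusted p = 0.022). In control mice the adjusted p reached 0.0578 when 1 library was left out, and the call was lost without either the third September or the third July library of ZT16 controls, in table order. Its copy Cyp2a4 stayed below 0.457 in every library.

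Cyp2b10 is the classical target of the xenobiotic receptor CAR. Its values were 239, 370 and 439 in ZT16 anti-Ly6G mice, against 201, 226 and 291 in ZT4 anti-Ly6G mice. Control mice had 351, 402 and 424 at ZT16, against 233, 280 and 319 at ZT4. The control groups did not overlap, and a single ZT16 mouse lay within the ZT4 range in the anti-Ly6G groups. The log2 change was 0.64 ± 0.10 in anti-Ly6G mice (adjusted p = 2.5e-05) and 0.56 ± 0.10 in control mice (adjusted p = 3.4e-04).

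Cyp3a13 belongs to the CYP3A family of drug and steroid hydroxylases. It had 6.29, 9.73 and 12.9 in ZT16 anti-Ly6G mice, against 4.96, 6.08 and 6.88 in ZT4 anti-Ly6G mice. In control mice it had 8.74, 9.06 and 11.2 at ZT16, against 5.17, 6.16 and 7.81 at ZT4. Every ZT16 control mouse was above every ZT4 control mouse, and 1 ZT16 mouse given anti-Ly6G overlapped. That mouse, the second July library of its group in table order, was also the one that overlapped for Cyp2a5 and Cyp2b10. The log2 change was 0.62 ± 0.12 in anti-Ly6G mice (adjusted p = 2.2e-04) and 0.54 ± 0.12 in control mice (adjusted p = 0.0024).

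**Figure D2:**
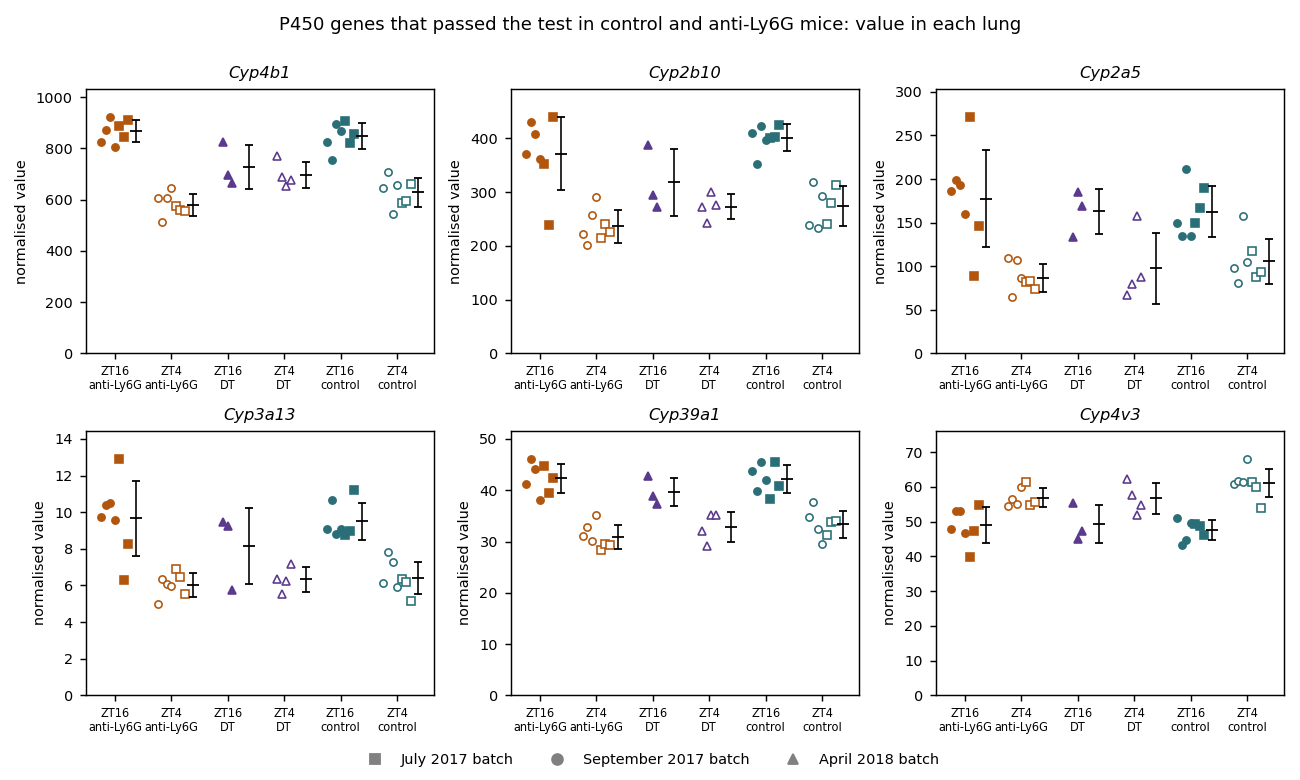
Normalised value (y axis, from 0) of 6 P450 genes in each of 35 lungs by group (x axis); squares, circles and triangles are July, September and April mice, filled at ZT16 and open at ZT4, with mean ± SD to the right of each group. In control mice every ZT16 lung lies above every ZT4 lung for Cyp4b1, Cyp2b10, Cyp3a13 and Cyp39a1 and below for Cyp4v3, whereas the DT mice overlap for all of these but Cyp39a1.

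Among the fatty acid families, Cyp4b1 separated the times most clearly. It had 807, 873 and 921 in ZT16 anti-Ly6G mice, against 514, 575 and 644 in ZT4 anti-Ly6G mice. Control mice had 756, 858 and 905 at ZT16, against 542, 647 and 708 at ZT4. The times did not overlap in either treatment. The log2 change was 0.58 ± 0.06 in anti-Ly6G mice (adjusted p = 7.6e-09, position 33 of all genes by p) and 0.43 ± 0.06 in control mice (adjusted p = 4.2e-06, position 59). The change was 0.64 in July and 0.53 in September anti-Ly6G mice, and 0.49 in July and 0.39 in September controls.

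Cyp4v3, the counterpart of human CYP4V2, went the other way. It had 39.7, 47.9 and 54.7 in ZT16 anti-Ly6G mice, against 54.5, 55.7 and 61.3 in ZT4 anti-Ly6G mice. In control mice it had 43.2, 48.7 and 50.9 at ZT16, against 54.0, 61.3 and 68.0 at ZT4. The control groups did not overlap, and in anti-Ly6G mice the highest ZT16 value just exceeded the lowest ZT4 value. It fell by 0.36 ± 0.06 on the log2 scale in control mice (adjusted p = 1.1e-04) and by 0.22 ± 0.06 in anti-Ly6G mice (adjusted p = 0.0082). Part of its exons, 313 bases, overlaps Gm45753.

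Further fatty acid family genes gave smaller or less steady calls. Cyp2j9, an arachidonic acid epoxygenase family member, had 2.75, 4.84 and 5.67 in ZT16 anti-Ly6G mice, against 5.94, 7.31 and 8.50 in ZT4 anti-Ly6G mice, without overlap. It fell by 0.62 ± 0.13 in anti-Ly6G mice (adjusted p = 6.2e-04), while in control mice the log2 difference was -0.28 ± 0.13 (adjusted p = 0.18). Cyp4f16, of the family that hydroxylates leukotrienes and fatty acids, had a mean of 21.4 ± 1.82 in ZT16 and 25.4 ± 2.20 in ZT4 anti-Ly6G mice (SD, n = 7 each) and fell by 0.24 ± 0.07 (adjusted p = 0.0090), against -0.12 ± 0.07 in control mice (adjusted p = 0.25). Neither difference between treatments passed its own test (limma adjusted p = 0.84 for Cyp2j9 and 0.88 for Cyp4f16). Cyp4a31 reached 1 in 5 ZT16 and 1 ZT4 anti-Ly6G mice and in 6 ZT16 and 0 ZT4 control mice, so that its higher ZT16 values decided its entry into the test. It had a mean of 1.19 ± 0.21 in ZT16 and 0.75 ± 0.25 in ZT4 anti-Ly6G mice and 1.14 ± 0.22 in ZT16 and 0.64 ± 0.26 in ZT4 control mice (SD, n = 7 each). Its log2 change was 0.45 ± 0.15 in anti-Ly6G mice (adjusted p = 0.026) and 0.54 ± 0.15 in control mice (adjusted p = 0.017), and it was also called in both treatments with no filter. In anti-Ly6G mice leaving out any of 5 libraries ended the call, and in both treatments so did a fit of the compared groups alone.

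Cyp39a1 hydroxylates an oxysterol on the way to bile acids. It had 38.2, 42.4 and 46.1 in ZT16 anti-Ly6G mice, against 28.3, 30.1 and 35.1 in ZT4 anti-Ly6G mice. Control mice had 38.3, 41.9 and 45.5 at ZT16, against 29.6, 33.9 and 37.8 at ZT4. The times did not overlap in either treatment. The log2 change was 0.45 ± 0.06 in anti-Ly6G mice (adjusted p = 6.5e-07) and 0.34 ± 0.06 in control mice (adjusted p = 1.4e-04). The other 4 sterol and bile acid enzymes tested did not pass in any treatment. Their mitochondrial member Cyp27a1 had log2 differences of 0.02 in anti-Ly6G and 0.14 in control mice, the oxysterol hydroxylase Cyp7b1 -0.08 and -0.30, and the bile acid enzyme Cyp8b1 0.48 (adjusted p = 0.052) and 0.12.

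By family, 3 of 11 foreign-compound genes passed upward and 0 downward in each of the anti-Ly6G and control comparisons, with median log2 changes of 0.14 in anti-Ly6G mice (10.6% of all genes higher and 10.4% lower) and 0.10 in controls (4.65% and 4.38%). Of 15 fatty acid genes, 2 passed upward and 3 downward in anti-Ly6G mice, with a median of -0.14, and 2 upward and 1 downward in control mice, with a median of 0.09. These counts are too small to be set apart from the shares of all genes. In both treatments the upward fatty acid genes were Cyp4b1 and Cyp4a31, and Cyp4a31 had entered the test through its ZT16 values. Of the 36 genes, 25 passed in no treatment. In these 25 the log2 difference between times ran from -0.39 (Cyp4f18) to 0.52 (Cyp1a1) in anti-Ly6G mice and from -0.48 (Cyp4f18) to 0.44 (Cyp4a10) in control mice. Cyp4a10 reached 1 in 6 ZT16 and 2 ZT4 libraries, so it too entered the test largely through ZT16 values. Cyp4f18 and Cyp4a10, like Cyp46a1 further on, fall outside the rule for named genes and were chosen after their values were seen. Cyp2f2, the highest P450 gene, had 3168, 3392 and 4316 in ZT16 anti-Ly6G mice, against 3370, 3484 and 3893 in ZT4 anti-Ly6G mice. In controls it had 3366, 3435 and 3782 at ZT16, against 3577, 3852 and 4116 at ZT4. Its log2 differences of -0.02 ± 0.07 in anti-Ly6G mice (adjusted p = 0.87) and -0.13 ± 0.07 in control mice (adjusted p = 0.26) did not pass. Cyp2s1, an epithelial P450, had differences below 0.01 in both treatments, and the orphan enzyme Cyp20a1 and Cyp2d22 lay within 0.14 of 0. The batches differed for Cyp2d22, which was called in both treatments in July mice alone and in neither in September mice alone. July anti-Ly6G mice had 66.1, 65.0 and 67.5 at ZT16, against 52.3, 54.4 and 52.4 at ZT4. July controls had 61.9, 56.0 and 68.1 at ZT16, against 46.5, 50.1 and 49.4 at ZT4.

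DT mice gave a different set of calls. Cyp2a5 and Cyp39a1 were again higher and Cyp2j9 lower at ZT16, but Cyp2f2 and Cyp2s1 were higher as well, and Cyp4b1, Cyp2b10, Cyp3a13, Cyp4a31 and Cyp4v3 did not pass. In all, 5 of 36 genes passed, 4 higher and 1 lower, beside 15.3% of all genes, 5.30% higher and 9.98% lower. A share of 13.9% in the P450 genes is close to that of all genes. The median log2 change was 0.10 in the P450 genes and -0.0090 in all genes. Of the DT list, 2 of 5 genes (40.0%) were called in the same direction in control mice, where they made up 28.6% of 7. Over all genes 231 were called in the same direction in both, 9.01% of the DT list and 15.2% of the control list, and 96 in opposite directions.

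Cyp2f2 had 3637, 4917 and 3799 in the 3 ZT16 DT mice, against 3147, 3207, 3664 and 3387 in the 4 ZT4 DT mice. The second ZT16 mouse was the highest of all 35, and the lowest ZT16 mouse lay within the ZT4 range. The log2 change was 0.29 ± 0.10 (adjusted p = 0.047). Cyp2s1 had 223, 314 and 232 in ZT16 DT mice, against 169, 189, 206 and 210 in ZT4 DT mice. These groups did not overlap, with the same mouse highest, and the log2 change was 0.39 ± 0.12 (adjusted p = 0.023).

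Markers of the airway moved in these lungs as well. Of 8 club cell markers 7 rose at ZT16 in DT mice, with a median log2 change of 0.51 over the list. Their summed level ran from 35659 to 43294 in ZT16 DT mice, against 23051 to 30529 in ZT4 DT mice. In the other 4 groups it lay between 24557 and 36817. Scgb3a2, a secretory protein of these cells, rose by 0.47 ± 0.12 (adjusted p = 0.0066), and Scgb1a1, their main one and chosen after its values were seen, by 0.55 ± 0.16 (adjusted p = 0.020). Of 6 ciliated cell markers 2 rose, with summed levels of 707 to 908 in ZT16 and 547 to 722 in ZT4 DT mice. Of 8 endothelial markers 5 fell, with sums of 3010 to 3414 in ZT16 and 4008 to 5124 in ZT4 DT mice. Among 8 fibroblast and smooth muscle markers 2 fell, with sums of 1642 to 1866 in ZT16 and 1932 to 2052 in ZT4 DT mice. While 4 of 8 alveolar type II markers fell, their sums overlapped, with 23054 to 25777 in ZT16 and 22743 to 27812 in ZT4 DT mice. No marker of these lists was at 0 in any library. In control mice 0 of 8 club cell markers rose and 1 fell, and in anti-Ly6G mice 1 rose. The part of these shifts in the Cyp2f2 and Cyp2s1 calls was not tested.

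**Figure D3:**
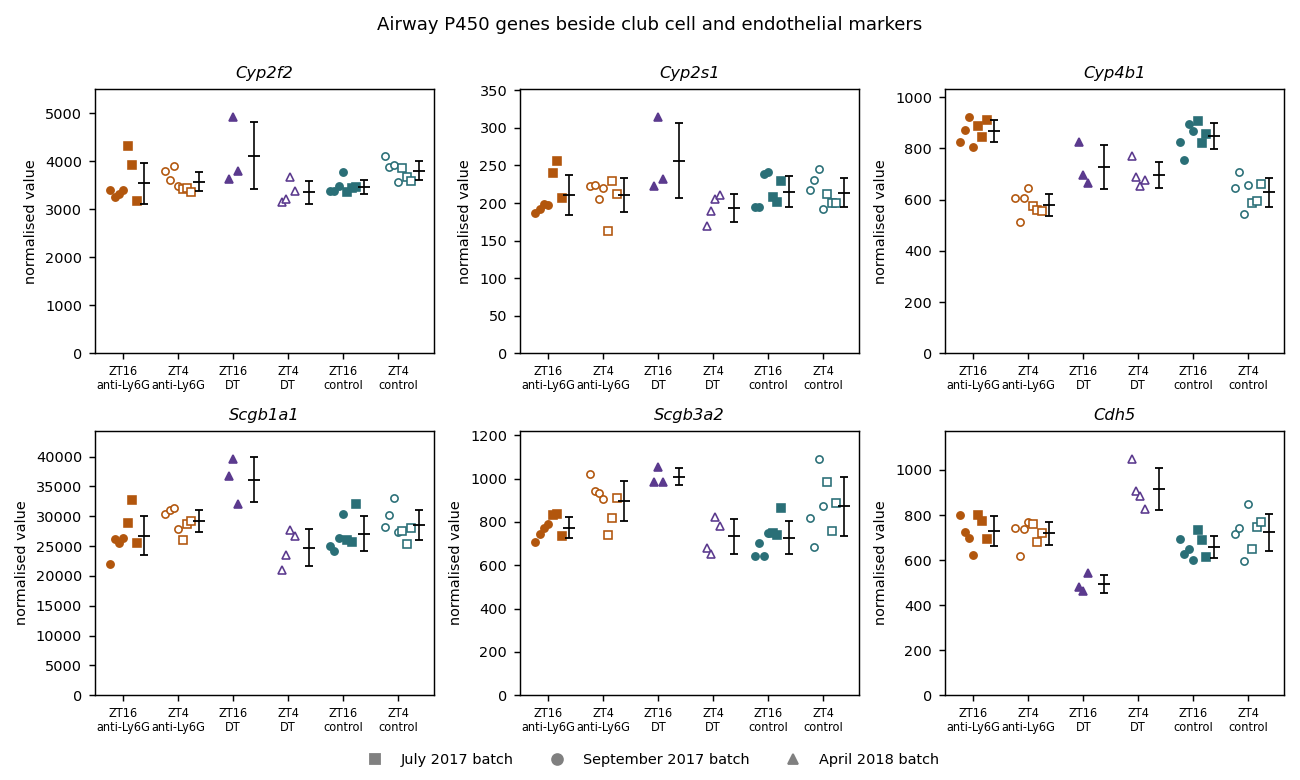
Normalised value (y axis, from 0) in each lung by group (x axis), with mean ± SD beside the points. Shown are the P450 genes Cyp2f2, Cyp2s1 and Cyp4b1, the club cell markers Scgb1a1 and Scgb3a2 and the endothelial marker Cdh5. Symbols show the batch, filled at ZT16 and open at ZT4. In DT mice Scgb1a1 and Scgb3a2 separate the times, as Cyp2s1 and, downward, Cdh5 do, while Cyp4b1 overlaps between the times.

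Cyp2a5 and Cyp39a1, called in all 3 treatments, and Cyp2j9 overlapped little between the times in DT mice. Cyp2a5 had 134, 185 and 170 in ZT16 DT mice, against 67.2, 79.4, 158 and 87.2 in ZT4 DT mice, with 1 high ZT4 mouse in the ZT16 range, and a log2 change of 0.80 ± 0.26 (adjusted p = 0.031). Cyp39a1 had 42.7, 38.9 and 37.4 in ZT16 DT mice, against 32.1, 29.1, 35.1 and 35.2 in ZT4 DT mice, with no overlap and a log2 change of 0.27 ± 0.08 (adjusted p = 0.023). Cyp2j9 had 4.64, 2.97 and 5.27 in ZT16 DT mice, against 7.87, 6.60, 6.41 and 6.43 in ZT4 DT mice, with no overlap, and fell by 0.64 ± 0.18 (adjusted p = 0.016).

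All DT calls rested on few mice. Leaving out the second ZT16 DT mouse gave 0 of 36 calls by limma. The column label of that library carries the extra letters mas, whose meaning is not stated. Its 10 highest genes held 10.1% of its summed values, the largest such share of all libraries. Leaving out the first ZT4 DT mouse ended all 5 calls and gave 1 other, Cyp1b1. Without the second ZT4 mouse 2 of the 5 calls remained (Cyp2j9 and Cyp2s1) and without the fourth 3 (those and Cyp39a1). Without the second ZT16 mouse the log2 change was 0.15 for Cyp2f2, 0.24 for Cyp2s1 and -0.42 for Cyp2j9. Of the 5 calls, Cyp2s1 and Cyp2j9 were lost in 2 of 7 such omissions each, Cyp2f2 and Cyp39a1 in 4 and Cyp2a5 in 5. With only the DT groups in the fit, Cyp2f2 and Cyp39a1 did not pass and Cyp1b1 and Cyp2e1 did.

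Cyp4b1 and Cyp2f2 differed between DT and control mice in the time change itself, the 2 of 36 genes that passed this interaction test, beside 13.8% of all genes. Cyp4b1 was the 1 lower call, beside 8.86% of all genes, and Cyp2f2 the 1 higher call, beside 4.93%. Cyp4b1 had 824, 696 and 663 in ZT16 DT mice, against 770, 687, 651 and 677 in ZT4 DT mice. The times overlapped, the DT change was 0.06 ± 0.08 (adjusted p = 0.68), and the change in DT mice minus that in control mice was -0.37 ± 0.10 (adjusted p = 0.015). For Cyp2f2 the corresponding difference was 0.42 ± 0.12 (adjusted p = 0.021). The Cyp4b1 result was lost without the first ZT4 or the third ZT16 DT mouse, and the Cyp2f2 result without the first ZT4 or the second ZT16 DT mouse. For Cyp2b10, with 388, 294 and 272 in ZT16 DT mice, against 272, 242, 301 and 276 in ZT4 DT mice, the interaction of -0.35 ± 0.18 did not pass (adjusted p = 0.18), nor did that of Cyp2s1 at 0.38 ± 0.14 (adjusted p = 0.070). Cyp3a13 and Cyp4v3 did not pass either, with log2 differences between times in DT mice of 0.31 ± 0.17 and -0.20 ± 0.09. The interaction mixes DT, genotype and batch, which cannot be told apart.

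The anti-Ly6G antibody was then compared with control IgG at each time, which asks how the P450 genes stood after neutrophil depletion. At ZT4 and at ZT16 limma called 0 of 36 P450 genes and 0 of all genes (0%). At unadjusted p under 0.05 there were 1185 genes at ZT4, 1 of them a P450 gene, and 701 at ZT16, none of them a P450 gene. The lowest adjusted p of a P450 gene was 0.69 at ZT4 and 0.97 at ZT16. Both comparisons share their samples with the time comparisons above. Mature neutrophil markers, 8 genes with none at 0, summed to 28.2 to 61.9 (median 43.2) in ZT4 anti-Ly6G mice and 48.8 to 776 (median 64.2) in ZT4 control mice. The sums were 23.0 to 38.6 (median 29.8) in ZT16 anti-Ly6G mice and 26.3 to 90.7 (median 58.3) in ZT16 control mice. The ranges overlapped at both times and 0 of 8 markers passed, with median log2 differences over the list of -1.14 at ZT4 and -0.54 at ZT16, against 0.0046 and 0.0011 over all genes.

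At ZT4 the differences ran from -0.53 for Cyp2e1, which oxidises ethanol and small solvents, to 0.35 for the cholesterol hydroxylase Cyp46a1. At ZT16 they ran from -0.33 for Cyp2b19, a skin epoxygenase counted here with the foreign-compound families, to 0.28 for Cyp1a1. The Cyp2e1 difference at ZT4 was -0.087 in July and -0.87 in September mice. A single September ZT4 control mouse had 53.6 (next in its group 15.3). The 95% interval lay within a 2-fold change in either direction for 34 of 36 genes at each time, and within 1.5-fold for 28 at ZT4 and 30 at ZT16. For Cyp2b10 at ZT4, the gene with unadjusted p under 0.05, the difference was -0.21 with an interval of -0.42 to -0.0072. Cyp4b1 differed by -0.11 (-0.23 to 0.0069) at ZT4 and by 0.04 (-0.08 to 0.15) at ZT16, and Cyp2f2 by -0.09 (-0.23 to 0.05) and 0.02 (-0.12 to 0.16). Cyp4f18, which hydroxylates leukotriene B4 in mouse neutrophils, differed by -0.0090 (-0.37 to 0.35) at ZT4 and 0.08 (-0.27 to 0.44) at ZT16.

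**Figure D4:**
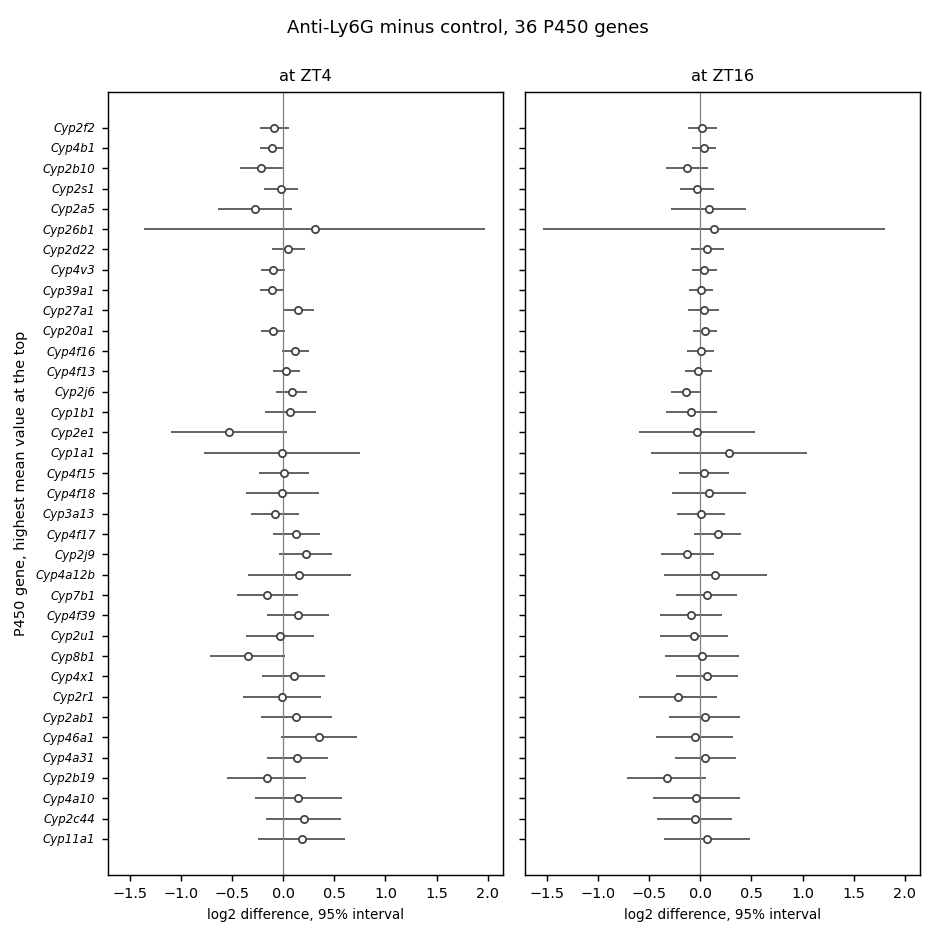
Log2 difference of anti-Ly6G minus control with its 95% interval (x axis) for the 36 tested P450 genes, ordered by mean value from top to bottom, at ZT4 and at ZT16 (7 mice per group). All points are open because 0 genes had an adjusted p under 0.05; most intervals lie within 1 on either side of 0 and that of Cyp26b1 is the widest.

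The time change itself did not pass a test of difference between anti-Ly6G and control mice in any of 36 P450 genes or of all genes (0%; 1007 genes at unadjusted p under 0.05, 1 of them a P450 gene; lowest limma adjusted p of a P450 gene 0.81). That gene was Cyp2j6, an arachidonic acid epoxygenase family member, whose anti-Ly6G change minus control change was -0.22 with a 95% interval of -0.43 to -0.0098. For Cyp2a5 the anti-Ly6G change minus the control change was 0.36 with a 95% interval of -0.16 to 0.87, for Cyp2b10 0.08 (-0.21 to 0.37), for Cyp4b1 0.15 (-0.02 to 0.32) and for Cyp39a1 0.11 (-0.05 to 0.28).

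A few P450 genes varied widely between mice of the same group. Cyp26b1, which clears retinoic acid, had 6.62, 34.4 and 527 in ZT16 anti-Ly6G mice, against 5.65, 29.7 and 683 in ZT4 anti-Ly6G mice. In controls it had 17.6, 32.9 and 233 at ZT16, against 11.3, 34.99 and 54.9 at ZT4. The 3 ZT16 DT mice had 34.1, 7.25 and 16.8, against 178, 213, 13.8 and 91.0 in ZT4 DT mice. Its highest library was 121 times its lowest, all group pairs overlapped, and the log2 difference in DT mice was -2.33 ± 1.17 (adjusted p = 0.18).

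Cyp1a1, the best known target of AhR, had 10.98, 15.1 and 29.6 in ZT16 anti-Ly6G mice, against 6.70, 10.3 and 20.7 in ZT4 anti-Ly6G mice, and 5.65, 13.4 and 26.3 in ZT16 controls, against 6.80, 10.99 and 17.2 in ZT4 controls. In ZT4 DT mice a single mouse had 70.7 and the other 3 had 4.80, 8.89 and 6.97. No comparison passed. Its relative Cyp1b1 did not pass either, with a log2 difference between times of 0.47 ± 0.18 in DT mice (adjusted p = 0.066), -0.06 in anti-Ly6G mice and 0.10 in control mice. Cyp2e1 had 5.12, 6.81 and 12.7 as its lowest, middle and highest value in ZT16 DT mice and 13.1 to 16.8 in ZT4 DT mice, without overlap, yet the log2 difference of -0.90 ± 0.40 did not pass (adjusted p = 0.13).

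**Figure D5:**
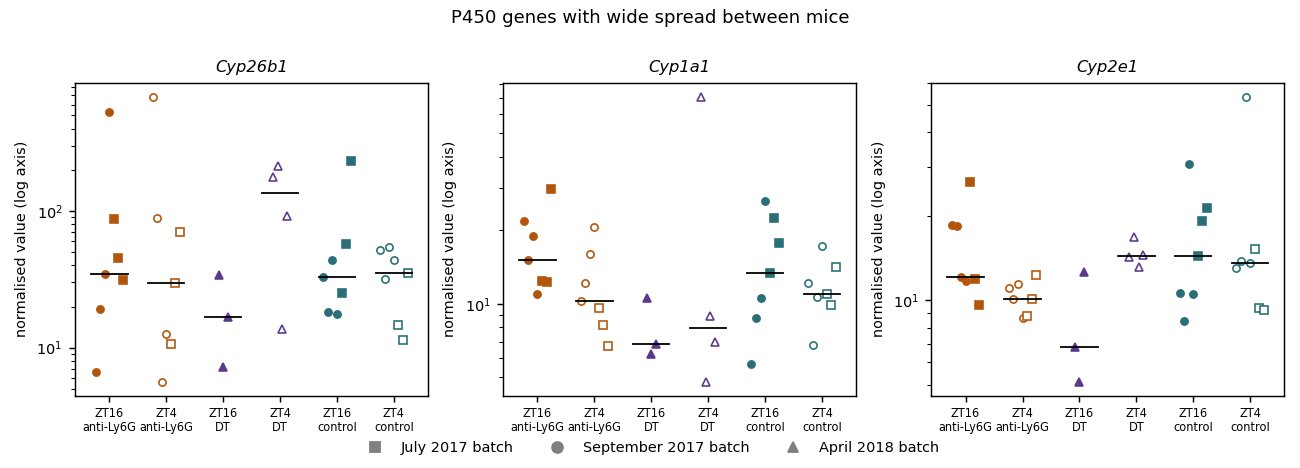
Normalised value (y axis, log axis) of Cyp26b1, Cyp1a1 and Cyp2e1 in each lung by group (x axis), with the group median as a line; symbols show the batch, filled at ZT16 and open at ZT4. For Cyp26b1 single mice at 527 and 683 stand far above their groups, and for Cyp1a1 a single ZT4 DT mouse stands at 70.7.

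Genes that serve the P450 enzymes were described by lists, whose counts stand beside the shares of all genes given above. These were 10.6% higher and 10.4% lower in anti-Ly6G mice, 5.30% and 9.98% in DT mice, and 4.65% and 4.38% in control mice, and the 2 higher and 2 lower of 16 eicosanoid enzymes in anti-Ly6G mice were near them. Of 20 redox partners and haem supply genes, 5 rose and 1 fell in anti-Ly6G mice, 5 rose and 1 fell in DT mice, and 2 rose and 1 fell in control mice. Cyb5a, the electron donor cytochrome b5, rose by 0.22 ± 0.04 in anti-Ly6G mice (adjusted p = 2.5e-04), by 0.21 ± 0.06 in DT mice (adjusted p = 0.017) and by 0.17 ± 0.04 in control mice (adjusted p = 0.0089). Alas1, the entry enzyme of haem synthesis, rose by 0.39 ± 0.10 in anti-Ly6G mice (adjusted p = 0.0051). The reductase Por fell by 0.24 ± 0.08 in DT mice (adjusted p = 0.035).

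The list of 19 receptors and AhR targets also holds clock output factors such as Dbp, so its counts are not of receptors and AhR targets alone. Of the 19 genes, 9 rose and 1 fell in anti-Ly6G mice. In DT mice 2 rose and 0 fell, and in control mice 2 rose and 1 fell. The gene that fell was Dbp, whose levels were 6.67, 17.4 and 32.9 in ZT16 anti-Ly6G mice, against 19.5, 68.2 and 83.6 in ZT4 anti-Ly6G mice, and 9.20, 12.5 and 41.6 in ZT16 controls, against 41.3, 68.9 and 122 in ZT4 controls. It fell by 1.67 ± 0.37 in anti-Ly6G mice (adjusted p = 0.0014) and by 2.19 ± 0.37 in control mice (adjusted p = 1.3e-04). In DT mice the Dbp difference was 0.03 ± 0.53 (adjusted p = 0.98). The related factor Hlf rose by 0.59 ± 0.12 in anti-Ly6G mice (adjusted p = 8.4e-04). The AhR target Tiparp rose by 0.32 ± 0.10 in anti-Ly6G mice (adjusted p = 0.021) and by 0.40 ± 0.10 in control mice (adjusted p = 0.0090), and the pregnane X receptor Nr1i2 rose by 0.92 ± 0.25 in DT mice (adjusted p = 0.012).

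Of 16 tested eicosanoid enzymes outside the P450 family, 2 rose and 2 fell in anti-Ly6G mice, 1 rose and 0 fell in DT mice, and 1 rose and 2 fell in control mice. Hpgd, which inactivates prostaglandins, rose by 0.70 ± 0.11 in anti-Ly6G mice (adjusted p = 2.2e-05) and by 0.60 ± 0.11 in control mice (adjusted p = 3.6e-04), and the prostaglandin E synthase Ptges fell by 0.59 ± 0.12 in anti-Ly6G mice (adjusted p = 3.7e-04) and by 0.46 ± 0.12 in control mice (adjusted p = 0.0084). Of 11 tested retinoid genes, 2 rose and 2 fell in anti-Ly6G mice, 1 rose and 1 fell in DT mice, and 1 rose and 0 fell in control mice. Aldh1a1, which makes the retinoic acid that Cyp26b1 clears, rose in all 3 treatments, by 0.74 ± 0.06 in anti-Ly6G mice (adjusted p = 1.3e-11), by 0.43 ± 0.08 in DT mice (adjusted p = 6.9e-04) and by 0.46 ± 0.06 in control mice (adjusted p = 1.0e-06). Markers of hepatocytes, the cells where most of these enzymes are best known, summed to at most 3.79 in any library. Only 4 of the 6 listed hepatocyte markers had a row in the deposited data.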

How the data were processed

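Per the labels' protocols, left lung RNA was amplified (Ovation Single Cell kit) before TruSeq library preparation. The submitters' processing notes list kallisto 0.43.1, RSEM 1.2.20, cutadapt, CASAVA 1.8.2 and the build GRCm38, with no role stated. The values the authors deposited are a normalised signal per gene, neither counts nor CPM. The sources used here do not state their normalisation or any batch adjustment, and read depth is unknown. Sums ran from 962649 to 1033550 per library, with 15351 to 15802 genes at or above 1. Values rose with exon length, the median being 8.30 in the shortest of 10 length groups and 52.0 in the longest. The ratio of the September minus July term to its SE had an SD of 0.511 over genes, so errors may be too small. The planned test for counts was not used. log2(value + 0.5) was fitted with limma 3.58.1 (R 4.3.3, trend option), with a mean per group and a batch term (28 residual degrees of freedom, 7 contrasts), on the 16786 genes with a value of 1 or more in 3 or more libraries, two-sided, with Benjamini-Hochberg adjustment. Fold changes on this scale understate those of low genes. The script was tested on simulated data. Table columns name a group and batch, so libraries are numbered in table order within them. Labels give 3 or 4 mice per group and batch, and each library was taken as 1 mouse. The members, motifs, families and gene lists (149 of 151 list genes in the table) were chosen with earlier results of these data known. Named genes are all members that passed in a time or anti-Ly6G contrast, the 10 of highest mean, up to 3 of smallest p per contrast with fewer than 3 passing, 7 further genes named whatever they did, and up to 4 of smallest p per list.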

Additional observations from a re-analysis of the deposited data

Results flagged for a closer look

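Single mice with a large gap to the next, against the range of their group, were sought without log transformation. The search covered 115 combinations of a named P450 gene with a group of 4 to 10 mice. For normally distributed values chance gives about 1 in 20, a rate that need not hold for skewed values such as those of Cyp26b1. Such a mouse was found in 10 of the combinations. Cyp26b1 had 3 of them: 527 in the fourth September mouse of ZT16 anti-Ly6G (next 87.3), 683 in the first September mouse of ZT4 anti-Ly6G (next 88.7) and 233 in the third July mouse of ZT16 controls (next 57.4). The same control mouse was highest for Cyp2j6 at 22.8 (next 18.3). Cyp1a1 at 70.7 (next 8.89) and Cyp2j9 at 7.87 (next 6.60) stood out in the first ZT4 DT mouse. Cyp2e1 stood at 53.6 in the third September mouse of ZT4 controls (next 15.3). Among the abundant airway genes, Cyp2f2 was high at 3782 in the fourth September mouse of ZT16 controls (next 3495), Cyp2b10 low at 351 in the second September mouse of ZT16 controls (next 397), and Cyp2s1 low at 163 in the first July mouse of ZT4 anti-Ly6G (next 205).

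The time change differed between DT and control mice for Cyp2f2, by 0.42, and for Cyp4b1, by -0.37 on the log2 scale (limma interaction). The DT mice were all of another genotype and batch than the controls.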

How the results depend on the processing

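Of 23 calls of a P450 gene in a comparison, 0 changed sign under any alternative, 14 held in every leave-one-out fit and 4 held under every alternative run for them: Cyp2a5, Cyp39a1 and Cyp4b1 in anti-Ly6G mice and Cyp4b1 in control mice. The count of P450 genes called for time was 2 instead of 7 in July control mice alone and 5 instead of 9 in September anti-Ly6G mice alone. The 2 July control calls were Cyp4b1 and Cyp2d22, which was not among the 7. July anti-Ly6G mice alone gave 6 calls, 4 of them among the 9, with Cyp1a1 and Cyp2d22 new. Over all genes, the time calls numbered 798 in July and 1467 in September anti-Ly6G mice alone instead of 3514, and 309 in July and 482 in September control mice alone instead of 1517, where fewer mice enter the fit. Leaving out single libraries gave 8 to 10 called P450 genes in anti-Ly6G mice, 0 to 6 in DT mice, 6 to 8 in control mice, 0 to 3 for the interaction of time with DT, and 0 to 0 for both antibody comparisons and for the interaction of time with anti-Ly6G. Over all genes, such omissions gave 1190 to 2554 calls in DT mice. Other pseudocounts, filters, rescaling by median of ratios (a median shift of at most 0.016), no batch term and fits of the compared groups alone kept these counts within 1.5-fold, though not always the same genes. In fits of the compared groups alone, 3 of 5 DT calls were kept (Cyp2f2 and Cyp39a1 were lost, Cyp1b1 and Cyp2e1 gained), and Cyp4a31 was lost in anti-Ly6G and control mice. Cyp2f2 in DT mice also lost its call with no filter. Cyp4a31 was not tested at a filter of 5. No paired analysis was possible because table columns carry numbers that match no single sample of the labels. Read depth is unknown, so genes near a value of 1 are the least certain.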
